A study of Mus musculus with 2 samples.

Results

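The genes described here are 9 members of the Hippo pathway and its TEAD family of transcription factors: Yap1, Wwtr1, Tead1, Tead2, Tead3, Tead4, Lats1, Lats2 and Amotl2. They were taken by name from the GENCODE M21 annotation of the mouse genome (mm10), where all 9 were found among 21829 protein-coding genes. Chromatin accessibility was measured at these genes by DNase-seq, in which the enzyme DNase I cuts DNA that is not wrapped in nucleosomes, so that regions rich in cuts are called as peaks. The tissue was whole urinary bladder of adult female B6CASTF1/J mice (the F1 of a C57BL/6 and a CAST parent) at an age of 18 to 20 months. The series holds 1 group of 2 libraries, labelled biological replicates 1 and 2, with no treatment and no second genotype. Both tissue samples are listed under the same donor record, and the labels do not say whether they came from separate animals, so the SD between the libraries may be technical spread. No conditions can be compared, and values are given per library and as mean ± SD (n = 2).

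In the Hippo pathway the MST kinases activate the LATS kinases, encoded by Lats1 and Lats2, which phosphorylate the cofactors YAP (Yap1) and TAZ (Wwtr1) and keep them in the cytoplasm. Unphosphorylated YAP and TAZ enter the nucleus and bind the TEAD proteins, which supply the contact with DNA at the sequence GGAATG. Lats2 and Amotl2, a scaffold that holds YAP at junctions and promotes LATS activity, are themselves known as targets of YAP and TEAD, which closes a feedback loop. In epithelia and smooth muscle, both present in the bladder wall, the pathway is known to respond to cell density, cell shape and stretch.

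The TEAD core GGAATG lay in peaks at the promoters of 7 of the 9 genes. This count covers whole peaks and any number of them per gene, and the share of all genes counted this way was not computed. Per peak, 7.66% and 8.14% of all promoter peaks held the core in 200 bp around the centre in replicates 1 and 2. The stretches are shown first because they hold the letters that TEAD proteins bind, and binding was not tested. Each stretch is read 5′ to 3′ on the strand of its gene from the mm10 reference, which is the C57BL/6 sequence. The CAST allele that these mice also carry was not examined. Capitals mark the core, which appears as CATTCC where it lies on the other strand.

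Yap1, chr9:8004702-8004767: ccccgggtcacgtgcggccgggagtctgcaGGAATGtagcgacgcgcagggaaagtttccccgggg
Wwtr1, chr3:57576199-57576264: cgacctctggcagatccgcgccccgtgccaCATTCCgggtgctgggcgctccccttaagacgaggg
Tead1, chr7:112679337-112679366: tcatttCATTCCtgtcctCATTCCgcacat
Tead3, chr17:28350952-28351017: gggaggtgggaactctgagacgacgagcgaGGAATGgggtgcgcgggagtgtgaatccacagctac
Tead4, chr6:128300456-128300485: ctCATTCCagcgccCATTCCgtgCATTCCt
Lats2, chr14:57746102-57746131: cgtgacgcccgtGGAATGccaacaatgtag
Amotl2 upstream, chr9:102717503-102717568: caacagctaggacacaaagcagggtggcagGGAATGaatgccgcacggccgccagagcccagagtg
Amotl2 downstream, chr9:102717727-102717756: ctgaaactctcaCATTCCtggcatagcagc

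The cores shown for Yap1 and Tead3 lie 136 and 165 bases upstream of the nearest annotated transcription start site, and that of Wwtr1 lies 319 bases upstream. The upstream core of Amotl2 lay 130 bases before a start and the other 71 bases after it. At Lats2 the core began 4 bases inside the transcribed region. The Tead1 stretch holds 2 cores at its start sites, and the Tead4 stretch holds 3 cores between 255 and 276 bases downstream of its start. No core was found in any peak of Tead2 or Lats1.

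Over the whole genome, replicate 1 had 84591 deposited peaks and replicate 2 had 112174, with a median deposited signal per peak of 0.819 and 0.760. Total depth is unknown, but the signal moves in whole steps, and the median peak held 96 steps in replicate 1 and 86 in replicate 2. The labelled tissue was checked at the promoters of 15 marker genes: all 5 urothelium, 4 smooth muscle and 2 fibroblast genes had a peak in both libraries. Of 4 genes of other organs, Alb, Apoa1 and Gcg had none in either library and Ins2 had a peak of 0.689 in replicate 2 only. In such mixed tissue, fewer accessible cells and less accessibility per cell cannot be told apart.

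All 9 genes had a promoter peak in both libraries, where a promoter is the stretch within 1 kb of any annotated start of the gene. The background is high, since 63.0% of all protein-coding genes had a promoter peak in both libraries. The genes differed in strength: Tead1, Wwtr1, Lats2 and Amotl2 had signals above the median of all open promoters, which was 3.51 (quartiles 1.77 and 5.75), while Tead4 and Tead2 lay below the lower quartile. The 2 libraries gave much the same value at each gene, with log2 ratios of replicate 2 over replicate 1 between -0.17 and 0.13.

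**Figure D1:**
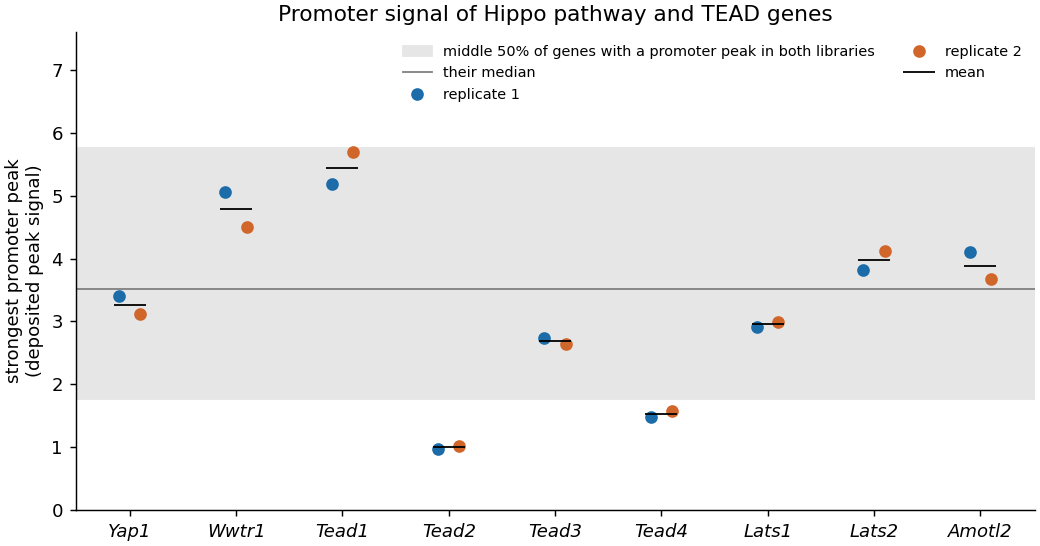
Deposited signal of the strongest promoter peak of each gene (vertical axis, the authors' signal units), with 1 point per library and a line at the mean; the grey band spans the quartiles 1.77 to 5.75 of all promoters with a peak in both libraries. Tead1 and Wwtr1 are highest, and Tead2 and Tead4 lie under the band in both libraries.

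Among the cofactors, Wwtr1, which encodes TAZ, had the stronger promoter. Its strongest promoter peak had a signal of 5.06 in replicate 1 and 4.51 in replicate 2 (4.78 ± 0.389, SD, n = 2), more than 65.0% of open promoters. Yap1 had 3.41 and 3.12 (3.27 ± 0.206), more than 46.9% of open promoters. Both Wwtr1 values lay above both Yap1 values. Yap1 (ENSMUSG00000053110.13) lies at chr9:7931999-8004596 on the minus strand and Wwtr1 (ENSMUSG00000027803.14) at chr3:57455649-57575910, also on the minus strand.

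The TEAD genes held both the strongest and the weakest promoter of the 9 genes. Tead1 (ENSMUSG00000055320.17, chr7:112679318-112906807, plus strand) had 5.18 and 5.69 (5.44 ± 0.358), the highest of the 9 genes in both libraries. Tead3 (ENSMUSG00000002249.21, chr17:28331671-28350817, minus strand) had 2.74 and 2.64 (2.69 ± 0.0672). Tead4 (ENSMUSG00000030353.15, chr6:128224288-128300823, minus strand) had 1.48 and 1.58 (1.53 ± 0.0693). Each of the 4 was separated from the next by more than the spread between the libraries, in the order Tead1, Tead3, Tead4, Tead2. Tead2 (ENSMUSG00000030796.17, chr7:45215753-45233644, plus strand) had the weakest promoter of the 9, with 0.972 and 1.03 (0.999 ± 0.0375), and only 12.2% of open promoters were weaker. In the shorter, stricter peak list the Tead2 promoter kept a peak in 1 library only, and its mean signal was 0.513 with the other library counted as 0.

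The kinase genes lay near the middle of all open promoters. Lats2 (ENSMUSG00000021959.16, chr14:57689662-57758388, minus strand) had 3.82 and 4.13 (3.97 ± 0.217). Lats1 (ENSMUSG00000040021.13, chr10:7681214-7716460, plus strand) had 2.92 and 2.996 (2.96 ± 0.0561), lower than Lats2 in both libraries. All promoter peaks of Lats1, 2 in replicate 1 and 3 in replicate 2, also lay within 1 kb of a start of the neighbouring gene Pcmt1, so the signal cannot be assigned to Lats1 alone. Without peaks of this kind, 8 of the 9 genes had a promoter peak in both libraries, and the share of all genes by this rule is not given here. Amotl2 (ENSMUSG00000032531.15, chr9:102716672-102733418, plus strand) had 4.11 and 3.67 (3.89 ± 0.313), a range that overlapped that of Lats2. In order of mean promoter signal the genes ran Tead1, Wwtr1, Lats2, Amotl2, Yap1, Lats1, Tead3, Tead4, Tead2, and of the neighbours in this order only Lats2 and Amotl2 overlapped in their values over the libraries.

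Many of these genes have several annotated starts, and a peak lay within 1 kb of some and not of others. Of 48 starts, 35 had a peak within 1 kb in both libraries, 12 in neither and 1 in replicate 2 only. The share over all 54322 starts was not computed. Starts close together can share a peak, as the 8 open Tead2 starts share 1, so they are not separate counts. At the 12 closed starts no base within 1 kb had a cut-rate false discovery rate under 0.05 in either library. At Tead1 the 3 clustered starts near position 112679318 were open in both libraries, 5 downstream starts were closed in both, and the start at 112691698 had a weak peak of 0.592 in replicate 2 only. Lats2 had 3 open starts and 3 closed ones, among them its most upstream start at 57758388. Yap1, Tead2, Lats1 and Amotl2 each had 1 closed start, and Wwtr1, Tead3 and Tead4 had none. At Tead4 the internal start at 128275577 had a separate, weaker peak of 0.435 in replicate 1 and 0.795 in replicate 2.

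Promoter CpG content ran from Tead1 at the top to Tead2 at the bottom, the same ends as the order of the signals, and Yap1, Wwtr1, Lats1 and Amotl2 changed places between the orders. For each gene the ratio of observed to expected CpG was taken in 500 bp around every annotated start, and the highest was kept. It was largest at Tead1 (1.11), Yap1 (1.09), Lats2 (1.00) and Lats1 (0.956), and smallest at Tead2 (0.709). The median of all protein-coding genes, taken the same way, was 0.676, and all 9 genes were above it. A highest value can rise with the number of starts, which ran from 2 at Wwtr1 and Lats1 to 9 at Tead1, Tead2 and Amotl2.

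Peaks away from promoters were counted next, over each gene body and 10 kb on either side, a window called the locus here. The 9 loci held 84 peaks in replicate 1 and 103 in replicate 2, of which 52 and 68 were not within 1 kb of the start of any protein-coding gene. With overlapping peaks of the 2 libraries paired 1 to 1 and each pair counted once, there were 118 peaks. Peaks left without a pair were counted singly, so some of the 118 overlap each other. Of these, 65 were in introns of the gene itself, 33 at its own promoter, 13 between genes and 4 at the promoter of another gene. Peaks away from promoters were classed by their centre. The remaining 3 lay in a coding exon, in an untranslated exon and in the body of another gene. Non-promoter peaks at these loci had a median signal of 0.929 and 0.893, against 0.725 and 0.680 for all non-promoter peaks.

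**Figure D2:**
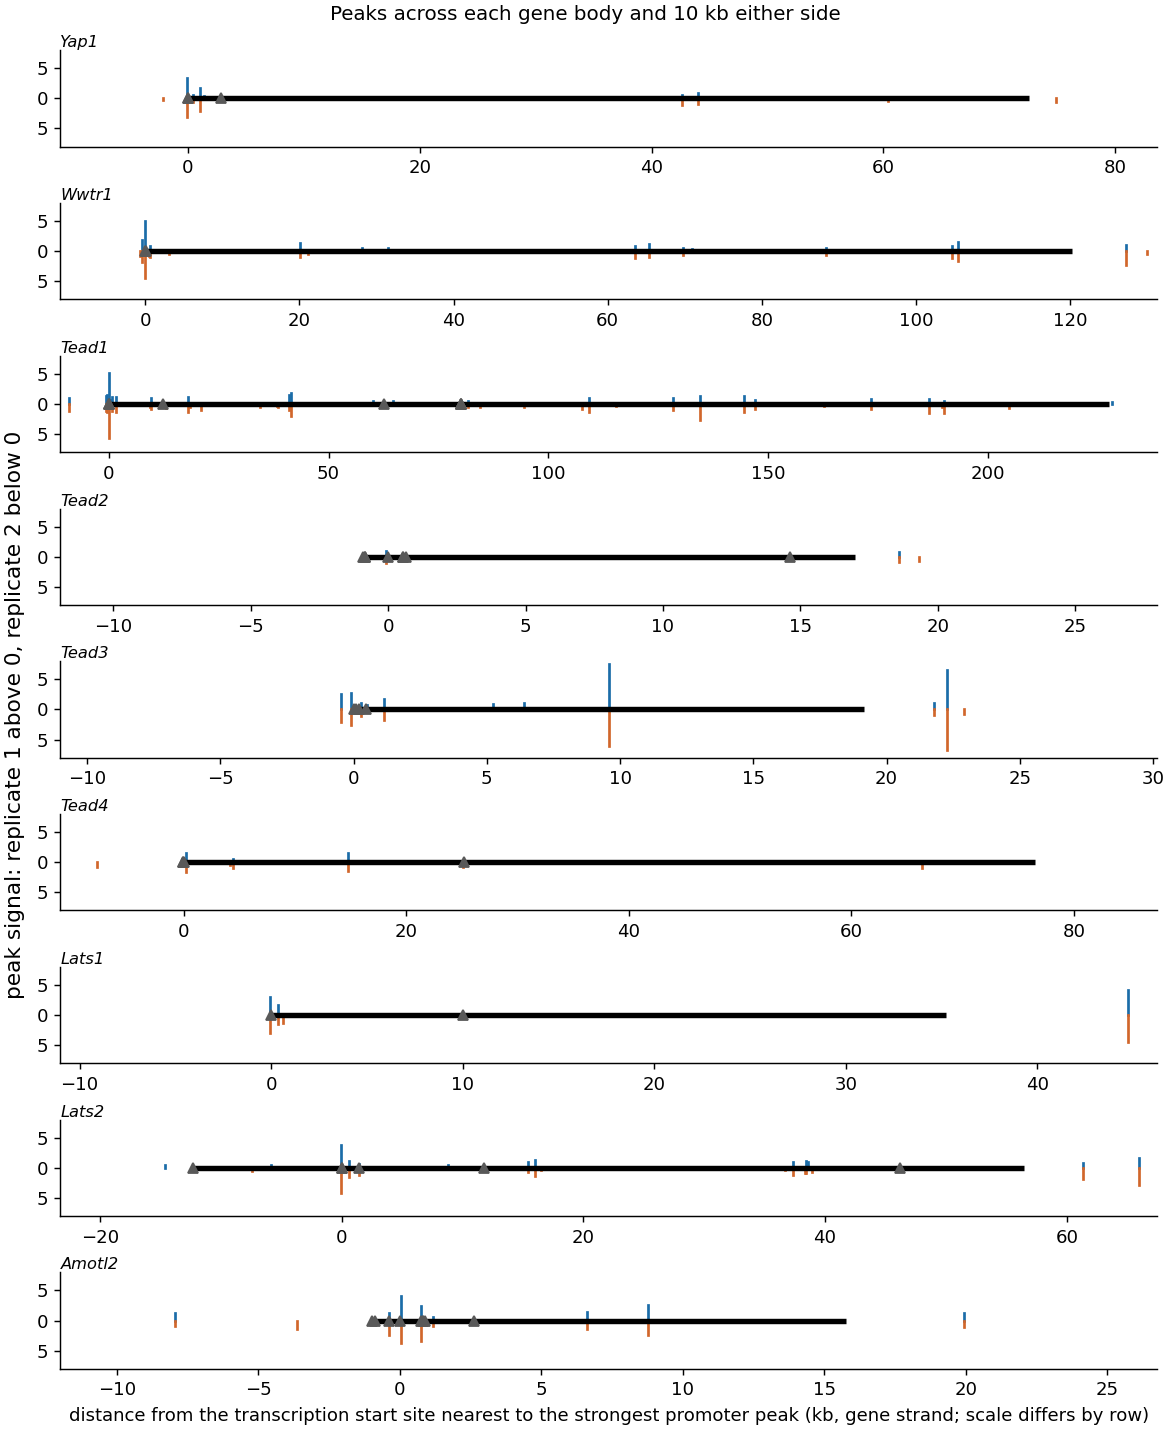
Peaks of each locus on the gene's strand, with distance in kb from the start nearest to the strongest promoter peak; bars above 0 give the signal in replicate 1, bars below 0 that in replicate 2, the black line is the gene body and grey triangles are annotated starts. Tead1 has the most peaks, Lats1 has none between its promoter and the promoter of another gene, and the tallest bar of Tead3 in replicate 1 is inside the gene body.

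Tead1, Wwtr1, Lats2 and Amotl2, whose promoters were the 4 strongest, also had the 4 highest mean densities of peaks. Density is given as non-promoter peaks per 10 kb of locus, which allows for the different gene lengths. At Amotl2 it was 1.09 in replicate 1 and 1.36 in replicate 2 (1.22 ± 0.192), and at Lats2 it was 1.13 and 1.24 (1.18 ± 0.0797). Tead1 had 18 and 28 such peaks, a density of 0.727 and 1.13 (0.929 ± 0.286). Wwtr1 had 11 in each library, a density of 0.784. The median over all protein-coding loci was 0.223 in replicate 1 and 0.356 in replicate 2, so these 4 genes were above it in both libraries.

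The other loci were sparser or less even. Yap1 had 3 and 5 non-promoter peaks, a density of 0.324 and 0.540. Tead2 had 1 and 2, a density of 0.264 and 0.528, and its window also covers Cd37, Dkkl1 and Slc6a16. Tead4 had 2 and 5, a density of 0.207 and 0.518, below the median of all loci in replicate 1 and above it in replicate 2. Tead3 went the other way, with 3 and 1, a density of 0.766 and 0.255. Lats1 stood apart, since its 3 and 4 locus peaks were all at promoters and its density was 0 in both libraries. In all, 6 of the 9 loci were above the all-gene median in both libraries, against 41.8% of protein-coding loci. That background includes genes without a promoter peak, and the share over genes with one is not given here. Taken over the mean of both libraries, the median density was 0.382 for genes with a promoter peak in both libraries. For all protein-coding genes it was 0.283.

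**Figure D3:**
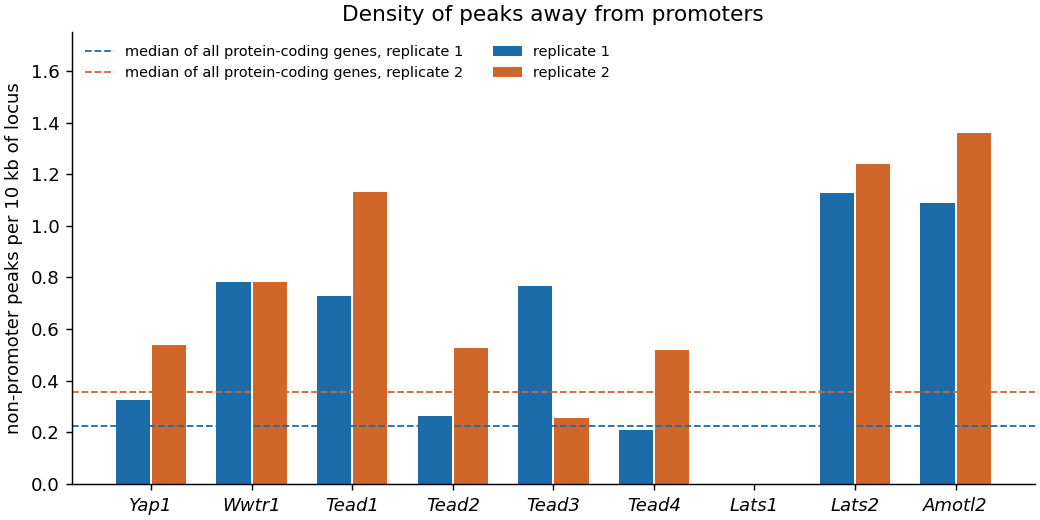
Non-promoter peaks per 10 kb of locus for each gene (vertical axis) in each library, with dashed lines at the medians of all protein-coding loci, 0.223 in replicate 1 and 0.356 in replicate 2. Lats2 and Amotl2 have bars above 1 in both libraries, and Lats1 has none.

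The strongest peak away from a promoter was in Tead3 and was stronger than the promoter of that gene. Its centre lies in an intron of Tead3, 9105 bases downstream of the nearest annotated start. Whether its ends reach into a coding exon was not checked. The peak had a signal of 7.61 in replicate 1 and 6.10 in replicate 2 (6.86 ± 1.07), against 2.74 and 2.64 at the promoter. Its sequence is shown because this peak had the highest mean signal of all 118, with capitals for the 57 bases that a deposited footprint covered in both libraries. A footprint is a short run inside a peak that is cut less often than its surroundings.

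Tead3 intron, chr17:28341121-28341360: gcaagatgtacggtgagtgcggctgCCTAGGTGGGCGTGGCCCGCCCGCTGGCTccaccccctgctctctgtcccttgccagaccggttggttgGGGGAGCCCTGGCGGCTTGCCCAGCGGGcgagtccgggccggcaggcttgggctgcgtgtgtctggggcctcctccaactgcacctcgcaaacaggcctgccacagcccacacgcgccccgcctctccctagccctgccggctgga

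In replicate 1 this peak held 2 footprints and in replicate 2 it held 3. It holds neither the TEAD core nor the AP-1 letters TGANTCA, and it holds the KLF letters CACCC once. Another strong peak of the Tead3 window, at chr17:28328441-28328660, had 6.64 and 6.68 but is the promoter of another gene, so the summed signal of the Tead3 window of 26.0 and 22.0 is not that of Tead3 alone.

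Tead1 had the longest series of intronic peaks. The strongest was at chr7:112813801-112814020, with 1.37 and 2.63 (2.00 ± 0.891), and the second at chr7:112720761-112721000, with 1.89 and 1.96 (1.93 ± 0.0486). The peak at chr7:112823701-112823960 had 1.40 and 1.36. The second and the last were nearly equal in the 2 libraries, while the first was higher in replicate 2. The first holds a TEAD core at 112813824, which was 71 and 57 bases from the nearest footprint in replicates 1 and 2, and its sequence is given with capitals for the 22 bases under a footprint in both libraries.

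Tead1 intron, chr7:112813801-112814020: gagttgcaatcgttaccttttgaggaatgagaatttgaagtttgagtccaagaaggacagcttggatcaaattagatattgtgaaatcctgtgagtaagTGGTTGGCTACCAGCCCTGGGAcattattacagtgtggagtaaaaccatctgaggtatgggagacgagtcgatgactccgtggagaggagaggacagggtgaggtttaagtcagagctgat

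At Wwtr1 the strongest peaks away from the promoter were chr3:57448581-57448780, past the end of the gene, with 1.10 and 2.29, and the intronic peak chr3:57470321-57470680, with 1.51 and 1.56. A further intronic peak at chr3:57555621-57555900 had 1.36 and 0.937. Only the intronic peak at 57470321 was nearly equal in both libraries. Yap1 had 2 intronic peaks found in both libraries, chr9:7960441-7960680 with 0.844 and 0.884 and chr9:7961901-7962080 with 0.640 and 1.04. They lie 41142 and 39712 bases from the nearest start of Yap1.

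Amotl2, a gene of 16747 bases, had an intronic peak at chr9:102726321-102726580 with 2.53 and 2.39 (2.46 ± 0.104) and another at chr9:102724141-102724420 with 1.47 and 1.40. These are both stronger than any intronic peak of Yap1. Past the end of Amotl2 a peak at chr9:102737481-102737694 had 1.20 and 1.09.

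At Lats2 the peaks with the highest means were chr14:57680021-57680220 and chr14:57684681-57684880, both past the end of the gene, and the intronic peak chr14:57729981-57730180, with 1.30 and 1.38. Tead4 had an intronic peak at chr6:128285841-128286060 with 1.46 and 1.39, close to the 1.48 and 1.58 of its promoter, and a weaker peak at chr6:128296207-128296420 with 0.554 and 1.03. The Tead2 window had a peak past the end of the gene, in an untranslated exon at chr7:45235054-45235500, with 0.853 and 0.946. Lats1 had no peak of this kind.

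Letters of 7 transcription factor motifs were searched on both strands in 200 bp around each peak centre. They were GGAATG for TEAD, TGANTCA for AP-1, CACCC for KLF factors, AGATAA for GATA factors, AACC, any base and GTT for GRHL, CC, any 3 bases, AG, any 2 bases and GGC for CTCF, and the CArG box for SRF. Matches of different motifs may overlap, and a match is a description of the letters only.

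TEAD letters were more frequent in promoter peaks of the 9 loci than in promoter peaks at large. Of the promoter peaks of these loci, 8 of 32 in replicate 1 (25%) and 9 of 35 in replicate 2 (25.7%) held the core, against 7.66% and 8.14% of all promoter peaks. Away from promoters the count was 13 of 52 peaks (25%) and 11 of 68 (16.2%), against 13.6% and 13.2% of all such peaks. The promoter shares were nearly equal in the 2 libraries and the non-promoter shares were not. Most of these peaks occur in both libraries and several belong to the same gene, so they are not independent. RefSeq promoter windows of GRCm38.p6 surround annotated starts and take no account of peaks. By symbol 11 windows were matched, which belong to 7 of the 9 genes, all but Tead1 and Tead4. Of these 11 windows 7 held the core, against 14.7% of 32851 windows. Which genes these 7 windows belong to is not given here. Some genes have more than 1 window, so the windows are not independent either.

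**Figure D4:**
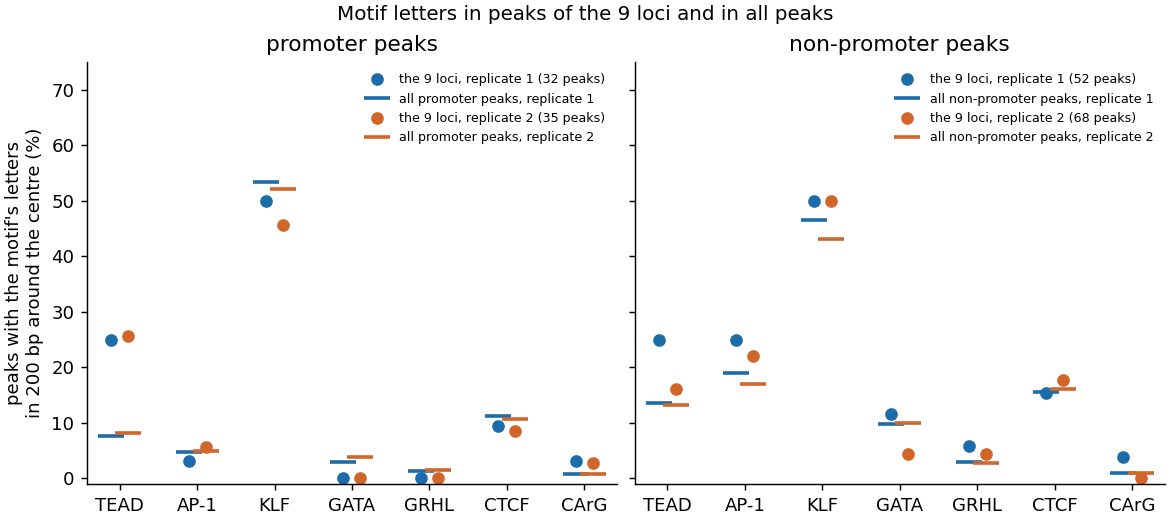
Percent of peaks with each motif's letters within 200 bp around the peak centre, for promoter peaks (left) and other peaks (right); points are the 9 loci in each library and short lines are all peaks of that class. For TEAD letters in promoter peaks the points lie at 25% and 25.7% over lines at 7.66% and 8.14%, the widest gap in percentage points of that panel.

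Few TEAD cores lay under a footprint, at these loci as in all peaks, and the counts are too small to tell the 2 apart. The 9 loci held 28 cores in 23 peaks, 15 of them in the promoters of 7 genes. Counting only cores that lay wholly inside a footprint with 5 bp added on each side, 1 of 22 was covered in replicate 1 and 3 of 22 in replicate 2, against 15.3% and 15.7% of all cores in peaks. No core was covered in both libraries, and the share of all cores covered in both was not computed. The core covered in replicate 1 was the last of the 3 at the Tead4 promoter, at 128300478. Those in replicate 2 were at the Tead1 start (112679355), in a Tead4 intron (128296330) and in Amotl2 (102717739).

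AP-1 letters, the site of Jun and Fos factors that often share elements with TEAD, were mostly in peaks away from promoters. There they lay in 13 of 52 peaks (25%) and 15 of 68 (22.1%), against 19.0% and 17.1% of all non-promoter peaks. At promoters they lay in 1 of 32 and 2 of 35 peaks (3.13% and 5.71%), against 4.80% and 4.90% of all promoter peaks, so the same contrast holds in all peaks. Footprints covered 4 of 17 AP-1 matches in replicate 1 and 3 of 17 in replicate 2, against 18.1% and 18.7% of all matches in peaks. A single match was covered in both libraries, and the share of all matches covered in both was not computed. It lay in the Tead1 intron peak at chr7:112697161-112697440, which had a signal of 1.13 and 1.39. Its surroundings are shown with the AP-1 letters in capitals, and a further match, tgaatca, starts 12 bases before it.

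Tead1 AP-1, chr7:112697186-112697252: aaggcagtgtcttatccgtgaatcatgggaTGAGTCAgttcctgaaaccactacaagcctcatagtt

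KLF and CTCF letters were about as frequent as in all peaks. KLF letters were in 42 of 84 peaks (50%) and 50 of 103 (48.5%), against 48.6% and 45.5% of all peaks. CTCF letters were in 11 and 15 peaks (13.1% and 14.6%), against 14.3% and 14.7%. The other motifs rest on few peaks. GATA letters were in 6 and 3 peaks (7.14% and 2.91%), against 7.80% and 8.34% of all peaks. GRHL letters were in 3 peaks in each library (3.57% and 2.91%), against 2.48% and 2.42%. The CArG box was in 3 peaks and 1 peak (3.57% and 0.971%), against 0.927% and 0.980%, so it was above the share of all peaks in replicate 1 only.

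Footprints as a whole were about as common as elsewhere. Of the peaks at the 9 loci, 63 of 84 (75%) in replicate 1 and 84 of 103 (81.6%) in replicate 2 held at least 1 footprint, against 76.9% and 76.1% of all peaks. Footprints covered 10.8% and 11.7% of the peak sequence, against 11.7% and 12.4% in all peaks. The strongest Amotl2 promoter peak held 10 footprints in replicate 1 and 7 in replicate 2, and the strongest Wwtr1 promoter peak held 9 and 5.

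The 2 libraries were then compared at these loci. In replicate 1, 70 of 84 peaks at these loci (83.3%) were met by a peak of the other library, against 84.7% of all peaks, and in replicate 2 this held for 70 of 103 (68.0%), against 64.1%. No overlap was found for 14 and 33 peaks. Tead1, which had the most locus peaks (23 and 34), also had the most without a partner, 12 of them in its introns and in replicate 2 only. All of the strongest promoter peaks were found in both.

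The summed signal of a locus was higher in replicate 2 at 8 of the 9 genes, as it was at most genes, since the median log2 ratio over all 17277 loci with peaks in both libraries was 0.28. Relative to that median the 9 loci had a median of 0.02 and ran from -0.53 at Tead3 to 0.31 at Tead4. None of the 9 was past 1.5-fold, against 14.4% of all loci. Tead3 had 26.0 in replicate 1 and 22.0 in replicate 2, and Tead4 had 4.54 and 6.86. With 1 library on each side these are differences between 2 libraries, with no test.

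Among 1-to-1 pairs of peaks, 12 of the 69 at these loci differed by more than 1.5-fold from the median ratio (17.4%), against 22.5% of all pairs. Of these, 9 were higher in replicate 2 (13.0%), against 15.2% of all pairs, and 3 were lower (4.35%), against 7.30%. The 3 largest differences were at peaks with CTCF letters, the site of a factor that organises chromatin loops, and these peaks are named here after their values were seen. In 10 pairs the replicate 1 peak held the CTCF letters. Their median centred log2 ratio was 0.41, equal to the 0.41 of all 11764 such pairs. The median of all 69 pairs at the 9 loci was -0.08. Pairs with the letters only outside the replicate 1 peak were not counted here. Of the 10 pairs, 4 were past 1.5-fold higher in replicate 2 and 1 was past it lower. This compares with 38.7% and 2.95% of all 11764 pairs, so the higher count is near the background.

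**Figure D5:**
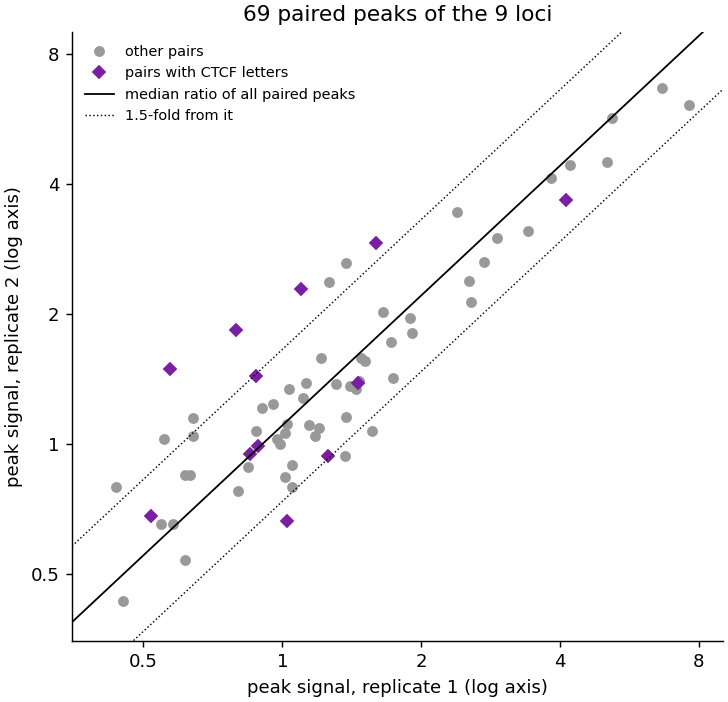
Signal of the 69 paired peaks of the 9 loci in replicate 1 (horizontal, log axis) and replicate 2 (vertical, log axis), with a solid line at the median ratio of all pairs and dotted lines at 1.5-fold from it. Diamonds are pairs with CTCF letters anywhere in the merged peak, which include the 10 with the letters in the replicate 1 peak. Most pairs lie between the dotted lines, 9 lie above them and 3 below, and 4 of those above are diamonds.

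The 4 stretches with CTCF letters at peaks past 1.5-fold higher in replicate 2 are shown on the strand of the gene, because 3 of them are at the largest differences. Capitals mark the CTCF letters.

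Wwtr1, chr3:57448668-57448709: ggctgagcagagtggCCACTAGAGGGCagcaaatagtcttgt
Tead1, chr7:112869220-112869261: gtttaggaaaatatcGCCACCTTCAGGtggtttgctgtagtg
Lats2 distal, chr14:57680092-57680133: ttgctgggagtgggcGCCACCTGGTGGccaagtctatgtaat
Lats2 proximal, chr14:57684760-57684801: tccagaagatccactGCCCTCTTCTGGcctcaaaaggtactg

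The Tead1 intron peak around the second stretch, chr7:112869141-112869340, had 0.571 in replicate 1 and 1.49 in replicate 2. At Lats2 the distal peak had 1.59 and 2.92 and the proximal peak 0.793 and 1.84, and the Wwtr1 peak past the end of the gene had 1.10 and 2.29. All 4 were higher in replicate 2. The letters of the distal Lats2 peak were covered by a footprint in both libraries, and those of the other 3 in replicate 2 only. Over all 9 loci 1 of 10 CTCF matches was covered in replicate 1 and 9 of 14 in replicate 2, against 51.1% and 61.0% of all CTCF matches in peaks. The cause of the difference between the libraries was not tested.

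The other pathway genes were taken from a list by role, 42 genes in all. Of these, 39 had a promoter peak in both libraries, against 63.0% of all protein-coding genes, a background that also applies to the counts by role. The median promoter signal was 2.39 over the list and 1.49 over all protein-coding genes, with genes without a peak counted as 0. Over the 13754 genes with a promoter peak in both libraries it was 3.51, higher than that of the list. The median density was 0.529 non-promoter peaks per 10 kb, against 0.283 over all protein-coding genes and 0.511 over the 9 genes. Genes with a promoter peak in both libraries had a median density of 0.382. All 13 kinases and adaptors had a promoter peak, led by Taok3, a kinase that acts upstream of the MST kinases, with 10.3 and 12.2 (11.3 ± 1.33), and Mob1b, an adaptor of the LATS kinases, with 6.40 and 8.48 (7.44 ± 1.47). This role had the highest median promoter signal of the 5 roles, 5.6, higher than the 3.27 of the 9 genes themselves.

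At the cell surface and in polarity complexes 6 of 7 genes had a promoter peak, led by Scrib, a polarity scaffold (7.02 and 6.99), and Fat1, an atypical cadherin (5.68 and 4.77). Dchs1, the cadherin that binds Fat4, had none in either library. All 8 junction and YAP-binding genes had a promoter peak, and the tight junction scaffold gene Tjp1 had 4.45 and 3.53 (3.99 ± 0.648). Of the cofactors that compete with YAP and TAZ for TEAD, Vgll4 had 4.56 and 4.83 and Vgll3 2.12 and 2.08, while Vgll1 had no promoter peak and no locus peak in either library.

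Of 10 known target genes, 9 had a promoter peak in both libraries. Birc5, an inhibitor of apoptosis, had 5.07 and 5.36 (5.22 ± 0.205), and Nuak2, a kinase, had 2.97 and 3.78 (3.37 ± 0.576). Ankrd1 had none, although its locus held 2 peaks in replicate 1 and 3 in replicate 2. The target genes had the highest median density of the 5 roles, 0.977 non-promoter peaks per 10 kb, and the kinases and adaptors 0.428.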

How the data were processed

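The peak lists, footprints and cut-rate stretches were made by the authors per library on mm10, per the deposited file listing, with no pooling over libraries. Which aligner and caller were run is not given in the sources used here. The deposited peak signal is on a scale the authors do not define. It was a whole multiple of 1 step per library (0.00853 and 0.00884) within a tolerance of 0.02 for 100% of peaks. The deposited false discovery rates, on the p-value scale, cover stretches under 0.05, and the deposited footprint lists carry 0.01 in every row, so only their positions were used.

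The longer peak list was the main list. Genes and starts came from GENCODE M21 (21829 protein-coding genes, 54322 starts), with sequence from GRCm38.p6, the assembly of mm10. A promoter peak overlapped the 1 kb on either side of a start, and a locus spanned the gene and 10 kb on each side of it. Peaks were shared at an overlap of at least 1 bp and paired 1 to 1 by the largest mutual overlap. Ratios of replicate 2 over replicate 1 had the median over all loci or all pairs subtracted on the log2 scale. No p-value was computed, since there is 1 group. The pairing, overlap, motif search and ratio steps were tested on simulated data. The analysis used Python 3.11.15, numpy 2.4.6 and pandas 2.3.3.

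The genes, the pathway list and the measures were chosen with earlier results of these data known. By rule, all 9 genes were named, with the strongest promoter peak and up to 3 strongest paired non-promoter peaks of each. For each role of the pathway list the 2 strongest promoters and those without a peak in either library were named, except 1 result that is not reported here. Other peaks were named after their values were seen. Alternatives covered promoter width, locus width, the shorter list, the 42295 strongest peaks of each library, the overlap rule, the motif letters and window, and each library alone.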

Additional observations from a re-analysis of the deposited data

How the results depend on the processing

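All 9 genes kept a promoter peak in both libraries with promoters of 500 bp or 2 kb and among the strongest peaks (42295 per library). In the shorter list 8 did, where Tead2 lost 1. The share of all protein-coding genes is given only for the main settings, where it was 63.0%. With the main settings the median density of non-promoter peaks over the 9 genes was 0.634 per 10 kb, against 0.289 for all genes. Both values are means of the 2 library medians. It was 0.339 in the shorter list (all genes 0.0938) and 0.342 among the strongest peaks (all genes 0). With promoter peaks counted it was 1.04 (all genes 0.668). By library it was 0.540 to 0.727. Taken as the median of the gene means, as for the other pathway genes, it was 0.511. The same measure was 0.283 for all genes and 0.382 for genes with a promoter peak in both libraries. The number of locus peaks, 93.5 as the mean of both libraries, was 146 with 50 kb on either side. The share of peaks with the TEAD core, 22.2% against 11.9% of all peaks, fell to 7.56% with the longer letters GGAATGT, against 3.39% of all peaks. Footprints covered 13.9% of peak sequence in the shorter list, against 11.3% in the main list. The median centred log2 ratio over the 9 loci was 0.02, lay between -0.11 and 0.03 over the centred alternatives, where its sign changed, and was 0.30 with no centring. The depth of the libraries is unknown, which limits how far a missing peak can be read. No paired analysis was possible because the series holds 1 group.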
